A study of Mus musculus with 22 samples.

Results

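High-fat feeding of mice is a common model of metabolic dysfunction-associated steatotic liver disease, in which fat accumulates in hepatocytes and inflammation and scarring can follow. The comparison described here set the livers of 4 mice on a high-fat diet (HFD) with vehicle against the livers of 3 mice on normal diet with vehicle, both from the HFD cohort of the study. These 7 libraries are all of the HFD vehicle and normal-diet libraries of that cohort, out of 22 libraries in the series, and all genes of the count table were considered. The mice of both groups were wild-type (WT) males of strain C57BL/6J. The labels give the disease state MASLD for the HFD mice and Normal for the normal-diet mice. Liver RNA was sequenced from polyA-selected, strand-specific libraries. Another group of the cohort, 4 HFD mice given the compound DTMB, entered only the estimate of the spread between libraries. The sources used here give neither the composition of the diets nor the length of feeding or the hour at which livers were taken.

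The liver stores, makes, burns and exports fat. Sterol synthesis is driven by the transcription factor SREBP2, fatty acid synthesis by SREBP1c and ChREBP, and fatty acid oxidation by PPARalpha, a nuclear receptor activated by fatty acids. Resident macrophages (Kupffer cells), recruited monocytes, stellate cells and the hepatocytes themselves take part in the inflammatory and fibrotic responses of the fatty liver.

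The 7 libraries held 54.6 to 64.4 M counts, and 15597 of 45777 listed genes passed the filter on low counts. Albumin, the main plasma protein made by hepatocytes, had 59014, 59716, 64598 and 55776 CPM (counts scaled to a common library size, with TMM factors) in HFD livers and 66934, 80904 and 55353 CPM in normal-diet livers, and all 30 hepatocyte identity genes of the list passed the filter. Transcripts of pancreatic acinar cells, which make digestive enzymes, were present in some livers of both groups. Their sum was 592, 8.70, 11.5 and 4078 CPM in HFD replicates 1 to 4 and 1734, 7.43 and 1561 CPM in normal-diet replicates 1 to 3. Normal-diet replicate 1 also held skeletal muscle transcripts, with a list sum of 381 CPM against 10.9 to 20.6 CPM in the other 6 libraries. Across genes, the correlation of log2 CPM between 2 libraries of the same diet was 0.983 to 0.994. The first principal component carried 50% of the variance and separated the diets, and the second, with 27.8%, separated HFD replicates 1 and 4 and normal-diet replicates 1 and 3, the livers with acinar transcripts, from the other 3. The labels call the replicates biological, and p-values measure only the spread within groups of the cohort's 11 libraries, the DTMB livers included.

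Gene expression differed widely between the diets. On HFD 2374 genes were higher and 1958 lower, 4332 in all, at an adjusted p under 0.05 in edgeR's quasi-likelihood test with Benjamini-Hochberg adjustment, and only such genes are said below to have risen, fallen or been called. These are 27.8% of all genes tested, 15.2% higher and 12.6% lower. In 3987 of the 4332 the HFD and normal-diet libraries did not overlap, which was so for 36.0% of all genes tested. The median absolute log2 fold change of called genes was 0.57, and 850 genes rose and 289 fell by a log2 fold change of at least 1, which is 5.45% and 1.85% of all genes. The median log2 fold change of all genes was 0.015, and 0.14 when libraries were scaled by their size alone, where 3361 genes were higher and 1030 lower. Without the 5 libraries of the cohort whose acinar sum passed 100 CPM, 388 genes were higher and 267 lower (2.41% and 1.66% of 16101 genes). That fit kept 1 normal-diet library, which is assumed to vary like the other groups, and 99.8% of the 4331 called genes it tested had the same sign. Its libraries are also in the main fit, where 3987 called genes did not overlap, so most of these signs were fixed in advance.

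The 10 largest rises and falls by fold were taken from called genes with no overlap between the diets, a mean of at least 1 CPM in the higher group and no predicted or clone name, so rarer genes with larger fold changes are not among them. The rises were led by the cytochrome Cyp2b9, a P450 typical of female mouse liver (chromosome 7, 26173350 to 26210661 in GRCm38). It had 70.5, 104, 57.8 and 292 CPM in HFD replicates 1 to 4 and 0.0619, 0.0960 and 0.313 CPM in normal-diet replicates 1 to 3, a log2 fold change of 9.72 ± 0.93 (SE; adjusted p = 3.61e-05). Its neighbour in the family, Cyp2b13, had 0.568, 1.75, 0.807 and 5.99 CPM against 0, 0 and 0.0920 CPM (6.18 ± 1.34, adjusted p = 0.00530). For both genes HFD replicate 4 was the highest liver, and the lack of overlap between the diets follows from the rule of selection. Hao2, a peroxisomal hydroxy acid oxidase, had 486 counts in the 4 HFD libraries and 3 in the 3 normal-diet libraries, a ratio of 109 after scaling to library size, with a 95% counting interval of 37.0 to 529. Sprr1a, a small proline-rich protein of cornified epithelium, had 323 and 2 counts, a ratio of 108 with an interval of 29.7 to 898. Such intervals cover counting error only. The organic anion transporter gene Slc22a27 had 7.297, 6.77, 8.65 and 13.6 CPM in HFD livers and 0.372, 0.307 and 0.662 CPM in normal-diet livers (4.34 ± 0.39). Flacc1 rose by 5.36 ± 0.69.

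Others of these 10 rises are known from immune responses. Themis, a signalling protein best known from developing T cells, had 23.6, 25.5, 17.6 and 25.7 CPM in HFD livers against 0.418, 0.902 and 2.704 CPM in normal-diet livers (4.12 ± 0.46, adjusted p = 9.46e-05), while the T cell receptor subunit gene Cd3e had 0.492, 0.394, 0.226 and 0.604 CPM against 0.186, 0.134 and 0.202 CPM (1.29 ± 0.50, adjusted p = 0.0724). That Themis was above every normal-diet liver in all 4 HFD livers follows from the rule of selection. Ubd, a ubiquitin-like protein induced by interferon-gamma and tumour necrosis factor, had 11.1, 3.96, 2.97 and 10.9 CPM against 0.527, 0.537 and 0.423 CPM (3.86 ± 0.63). Lcn2, lipocalin-2, which binds bacterial iron carriers, had 65.6, 27.1, 27.6 and 81.7 CPM against 4.38, 3.15 and 3.33 CPM (3.799 ± 0.53). Acod1, the enzyme that makes itaconate in activated macrophages, had 1.66, 0.505, 0.403 and 1.501 CPM against 0, 0 and 0.202 CPM (3.92 ± 1.05, adjusted p = 0.0162). For these 3 genes HFD replicates 1 and 4, the HFD livers with acinar transcripts, stood above replicates 2 and 3. The part of the acinar livers in this was not tested, and the Acod1 call was lost without normal-diet replicate 1 or 2. In whole liver RNA, more cells of a type and more RNA per cell cannot be told apart.

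The largest fall by fold among the 10 was that of Cpne5, a calcium-dependent membrane-binding protein (-4.14 ± 0.73). The leptin receptor gene Lepr (chromosome 4, 101717137 to 101815352) came next, with 2.27, 2.37, 2.79 and 2.55 CPM in HFD livers and 20.5, 44.9 and 27.8 CPM in normal-diet livers (-3.63 ± 0.25, adjusted p = 9.21e-06). The 4 HFD livers lay close together. That they lay below all normal-diet livers follows from the rule of selection. Asns, asparagine synthetase, had 1.17, 0.331, 0.791 and 0.944 CPM against 6.67, 13.1 and 8.55 CPM (-3.54 ± 0.33). Smad9, a SMAD protein of the BMP pathway, had 3.75, 4.26, 1.99 and 2.32 CPM against 18.8, 26.2 and 23.8 CPM (-2.89 ± 0.24, adjusted p = 1.93e-05). Myom1, a protein of the muscle sarcomere, had 0.461, 0.489, 0.500 and 0.573 CPM against 11.2, 2.495 and 3.26 CPM (-3.48 ± 0.44), with its highest value in the normal-diet liver that held muscle transcripts. The others were the plasma glycoprotein gene A1bg (-3.44 ± 0.44), the connexin gene Gjc3 (-3.11 ± 0.40), the adhesion receptor gene Adgrf1 (-3.01 ± 0.35), Fam222a (-2.89 ± 0.43) and Srgap3, a GTPase-activating protein (-2.84 ± 0.29).

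A few genes had no count in any library of either the HFD or the normal-diet group. Clec4e, a C-type lectin receptor of macrophages, had 102, 31, 13 and 105 counts in HFD replicates 1 to 4 and none in the normal-diet livers. With 3 counts over all normal-diet libraries taken as the floor, it was at least 61.1-fold higher on HFD. The same bound held for Grin3b, an NMDA receptor subunit with 74, 49, 41 and 87 counts, and the bound was 17.5-fold for Psrc1, a protein of the mitotic spindle, 12.9-fold for 2700099C18Rik and 32.1-fold for B430212C06Rik. On the other side Tg, which encodes thyroglobulin, had no count in HFD livers and 28, 63 and 24 counts in normal-diet livers, and was at least 52.5-fold lower on HFD. The predicted gene Gm30509 had no count on HFD and 24, 11 and 26 counts on normal diet (at least 27.8-fold lower).

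**Figure D1:**
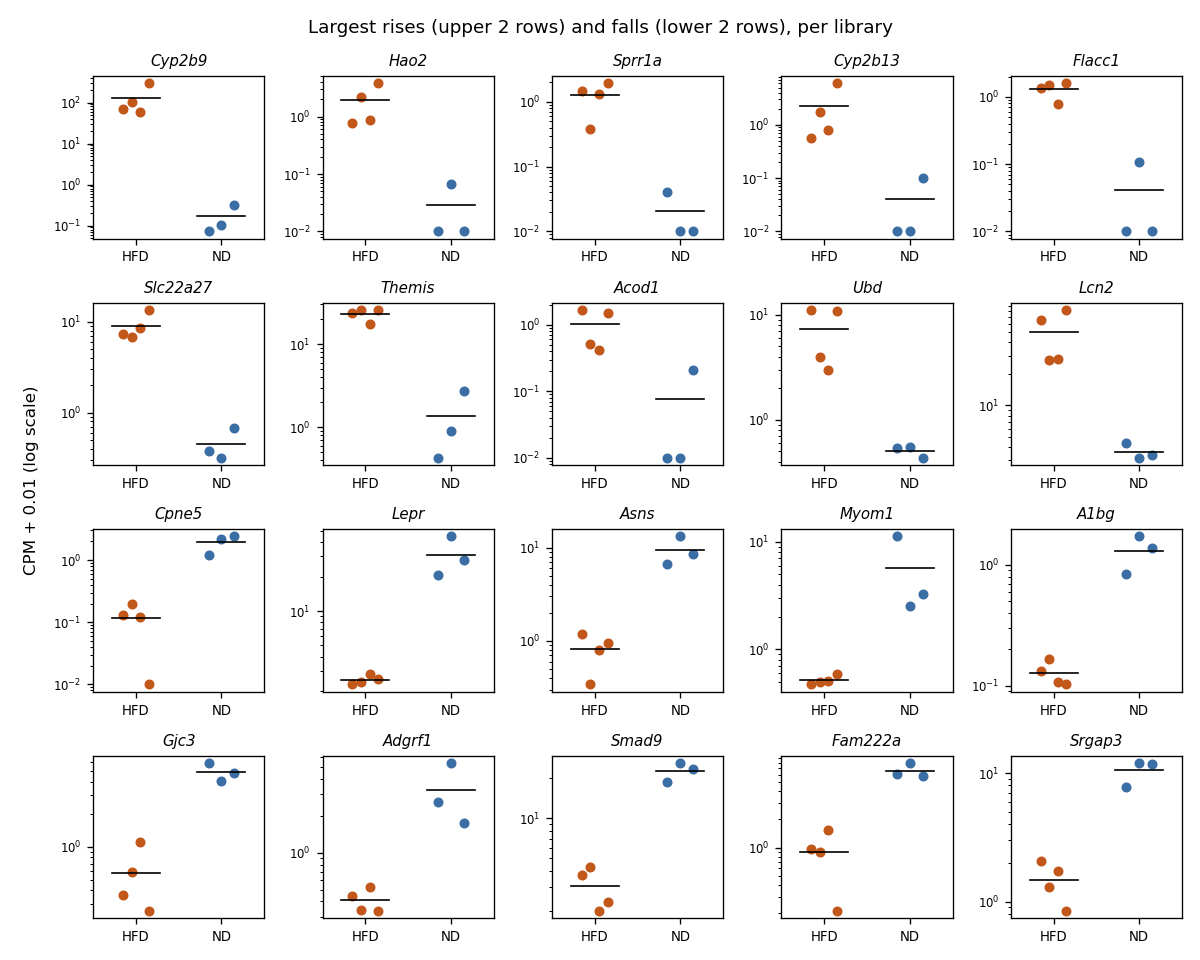
CPM + 0.01 (log scale) per library for the 10 largest rises and 10 largest falls by fold among called genes with a mean of at least 1 CPM in the higher group and no overlap, HFD vehicle livers (n = 4, orange) left of normal-diet livers (n = 3, blue), with a bar at the mean. Lepr lies at 2.27 to 2.79 CPM in HFD livers.

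By absolute level, the largest gains were in transcripts of hepatocytes. Apoe, the apolipoprotein of remnant particles, averaged 15639 ± 874 CPM in HFD livers and 12836 ± 706 CPM in normal-diet livers (SD, n = 4 and n = 3), and Cyp2e1, a pericentral P450, averaged 10986 ± 781 and 8186 ± 496 CPM. Car3, carbonic anhydrase 3, averaged 2579 ± 329.5 CPM on HFD and 335 ± 176 CPM on normal diet (2.95 ± 0.29), a rise in every HFD liver. Ttr, Aldh1a1, Slco1b2, Gc, Glul, Itih4 and B2m made up the rest of the 10, with log2 fold changes from 0.23 for Gc to 0.97 for Slco1b2. The calls of Apoe and Gc were lost without normal-diet replicate 1 or 3 or HFD replicate 4, and that of Gc also without HFD replicate 1. The largest losses were Serpina3k, a serine protease inhibitor, at 6208 ± 1247 CPM in HFD livers and 13433 ± 2193 CPM in normal-diet livers, and the fatty acid hydroxylase Cyp4a14, at 2230.2 ± 493 and 8721 ± 176 CPM. Mup7, Mat1a, Serpina1e, Ehhadh, Cyp3a11, Cyp4a10 and Cps1 were also among them, with log2 fold changes from -2.62 for Ehhadh to -0.95 for Cps1, and Mup7 lost its call without normal-diet replicate 2 or HFD replicate 1. Reads shared between members of the Mup, Serpina1, Cyp2b and Cyp4a families may have been split, so single members of these families are uncertain.

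Gene lists were described by how many tested members were called, against 15.2% higher and 12.6% lower among all genes. The lists with the highest shares of risen members were those of interferon responses, antigen presentation, lipid-associated macrophage and monocyte markers, collagens and sulfotransferases, followed by cholesterol synthesis. The list with the highest share of fallen members was that of skeletal muscle transcripts (8 of 11), which were most abundant in normal-diet replicate 1. It had 0 falls without normal-diet replicate 1 and 3, 4 and 1 without HFD replicates 1, 2 and 4, and the part of these transcripts in other falls was not tested. Of 13 Cyp2c cytochromes 6 fell, but 3 without normal-diet replicate 2 or HFD replicate 4 and 2 without normal-diet replicate 3 or HFD replicate 1. In all 6, HFD replicates 1 and 4, the HFD livers with acinar transcripts, stood below replicates 2 and 3. Shares of falls were also above that of all genes for mitochondrial and peroxisomal fatty acid oxidation and for male-biased liver genes. Counts of 2 or fewer calls in a list moved by at most 2 when any 1 library was left out.

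**Figure D2:**
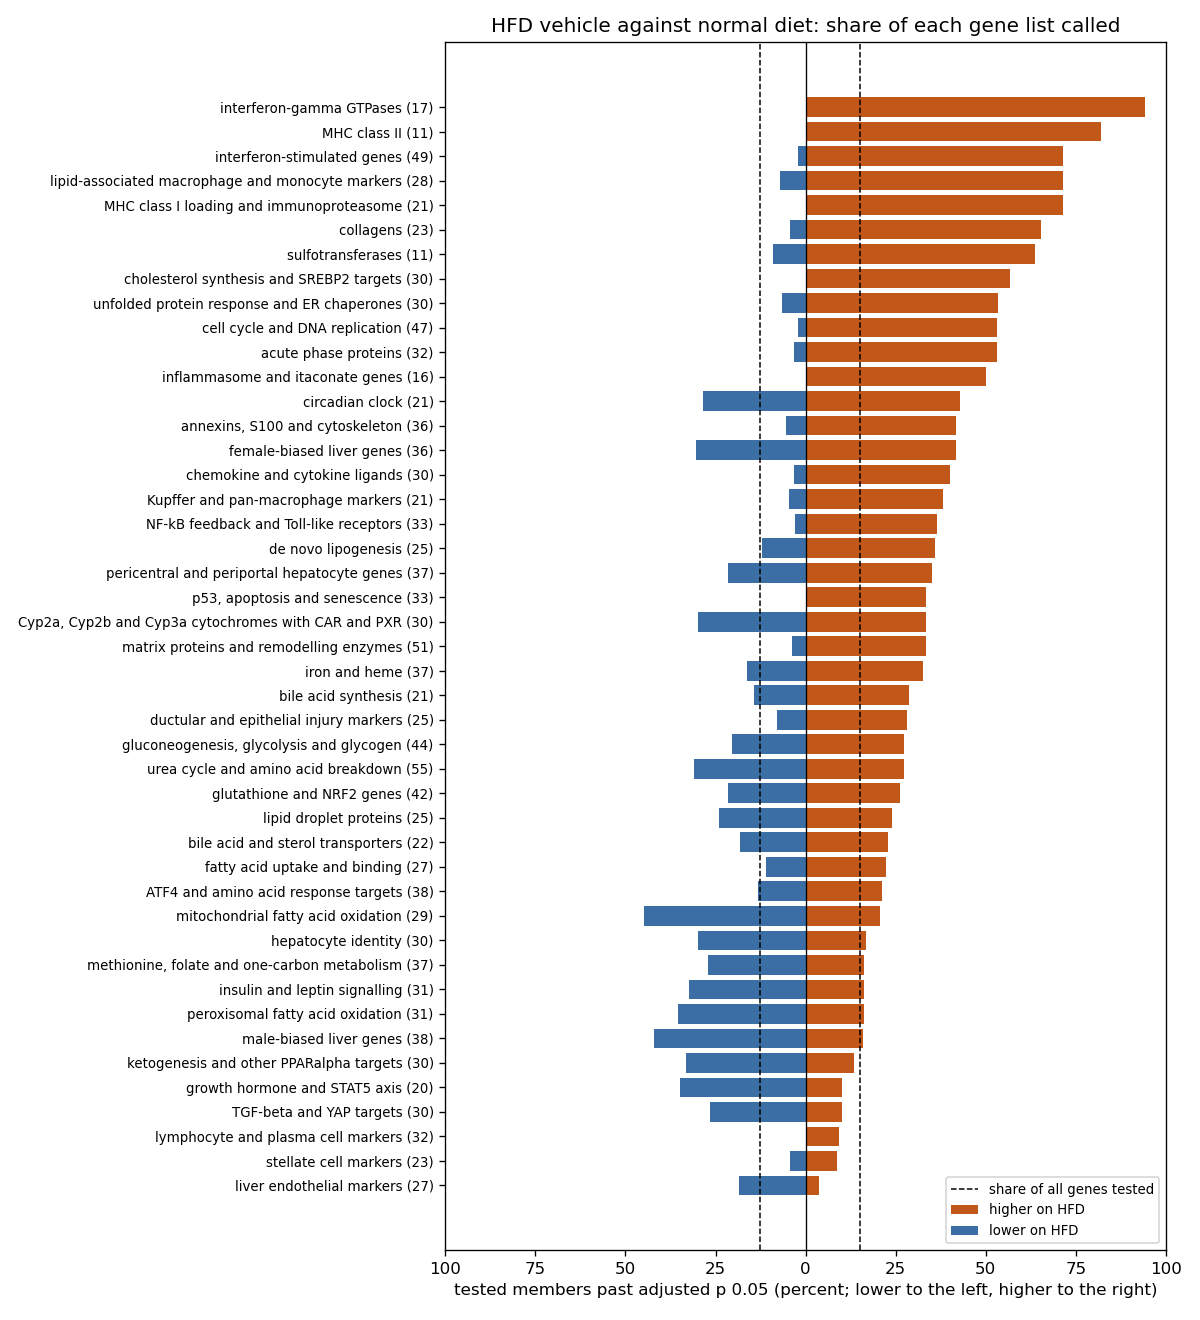
Share of tested members of 45 gene lists past adjusted p 0.05, lower on HFD to the left and higher to the right, with the number tested in parentheses and dashed lines at the shares of all genes (12.6% lower, 15.2% higher). The interferon-gamma GTPases stand at the top with 16 of 17 higher, and liver endothelial markers at the bottom with 1 of 27 higher and 5 lower.

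Most cholesterol synthesis genes rose on HFD. Of 30 tested members of the list of sterol synthesis enzymes and SREBP2 targets, 17 rose and 0 fell, with a median log2 fold change of 0.64. Without the acinar libraries the median was 0.70, and 7 were called higher, where 2.41% of all genes were. Mvd, which makes isopentenyl diphosphate, had 5.58, 5.600, 8.96 and 4.999 CPM in HFD livers and 1.44, 1.17 and 1.36 CPM in normal-diet livers (2.24 ± 0.26, adjusted p = 0.000118). Msmo1, a sterol demethylation enzyme, had 70.7, 72.9, 123 and 76.6 CPM against 13.6, 25.4 and 20.8 CPM (2.103 ± 0.29). Without HFD replicate 3, 2 members fell. For Mvd and Msmo1 replicate 3 was the highest HFD liver, and this held for all 17 risen members, against 23.2% of all genes that rose. Squalene epoxidase (Sqle) rose by 2.01 ± 0.36, mevalonate kinase (Mvk) by 1.31 ± 0.19 and acetoacetyl-CoA thiolase (Acat2) by 0.82 ± 0.085. Srebf2, which encodes SREBP2 itself, had 41.5, 42.1, 56.7 and 42.2 CPM against 36.1, 36.02 and 32.5 CPM and missed the threshold (0.39 ± 0.15, adjusted p = 0.0714), although no HFD liver overlapped a normal-diet liver.

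Hmgcs1, the cytosolic synthase of the sterol pathway, is shown because its promoter window was the single one of 21 list members with a window to hold the sterol regulatory element letters TCACNCCAC (either strand), against 1.47% of 11748 tested genes. It had 246, 257, 353 and 201 CPM in HFD livers and 96.6, 118 and 129 CPM in normal-diet livers (1.202 ± 0.22). The window runs from 250 bases before to 50 bases after the gene start (RefSeq, GRCm38.p6, chr13:119690101-119690400, + strand), with the match in capitals. A match is a description of letters, not of a bound site.
Hmgcs1: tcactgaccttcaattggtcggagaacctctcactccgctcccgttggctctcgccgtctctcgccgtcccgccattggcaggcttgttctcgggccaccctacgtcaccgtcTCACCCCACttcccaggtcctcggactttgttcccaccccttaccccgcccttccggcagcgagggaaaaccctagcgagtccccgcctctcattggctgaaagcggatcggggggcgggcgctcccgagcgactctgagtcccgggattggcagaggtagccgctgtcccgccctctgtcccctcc

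Fatty acid synthesis and storage genes moved in both directions. Of 25 tested lipogenesis genes 9 rose and 3 fell (median 0.26). Thrsp, a lipogenic nuclear protein, had 32.7, 58.5, 59.4 and 69.7 CPM in HFD livers and 8.67, 9.42 and 6.69 CPM in normal-diet livers (2.74 ± 0.43). Pyruvate kinase (Pklr) had 138, 154, 173 and 134 CPM against 61.8, 58.9 and 49.5 CPM (1.399 ± 0.17), and acetyl-CoA synthetase (Acss2) rose by 0.74 ± 0.12. Acacb, the mitochondrial acetyl-CoA carboxylase whose product inhibits fatty acid import, fell to 41.5, 40.2, 48.5 and 30.4 CPM in HFD livers, against 121, 87.7 and 98.1 CPM in normal-diet livers (-1.35 ± 0.19). The synthesis enzymes themselves showed no called change, with Fasn at 0.38 ± 0.20 (adjusted p = 0.186) and Acaca at -0.16 ± 0.11 (adjusted p = 0.292). Srebf1 rose by 0.85 ± 0.28 (adjusted p = 0.0420), with overlapping libraries and a call lost in 5 of the 7 fits that leave out 1 library, and Mlxipl, which encodes ChREBP, had 0.26 ± 0.10 (adjusted p = 0.0606).

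Of 25 lipid droplet proteins 6 rose and 6 fell, and the median was -0.17, or 0.14 without the acinar libraries. Cidea, a droplet fusion protein best known from brown fat, had 2.37, 3.06, 3.52 and 7.38 CPM in HFD livers and 0.465, 0.134 and 0.460 CPM in normal-diet livers (3.51 ± 0.54). Mogat1, a monoacylglycerol acyltransferase, had 6.24, 6.17, 5.003 and 7.800 CPM against 1.22, 1.02 and 1.45 CPM (2.35 ± 0.21, adjusted p = 2.46e-05). Every HFD liver was above every normal-diet liver for both genes, and Cidea was highest in HFD replicate 4. Fitm1, a droplet biogenesis protein, rose by 1.26 ± 0.16, Plin4 by 1.01 ± 0.31 and Dgat2, the last enzyme of triglyceride synthesis, by 0.57 ± 0.082. The triglyceride lipase Pnpla2 fell by 0.85 ± 0.12. The coat protein Plin2 had 989, 954, 1194 and 829 CPM against 1602, 1029 and 1528 CPM and was not called (-0.48 ± 0.18, adjusted p = 0.0637), nor was Cidec (-0.67 ± 0.26, adjusted p = 0.0767). Plin2 had the opposite sign without the acinar libraries, and Plin4 lost its call without normal-diet replicate 2 or 3 or HFD replicate 2 or 4.

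Among 27 fatty acid uptake and binding genes 6 rose and 3 fell, with 1 fall without normal-diet replicate 1 or 2 or HFD replicate 4. The fatty acid receptor Cd36 had 283, 243, 220.5 and 271 CPM in HFD livers and 110.3, 54.05 and 129 CPM in normal-diet livers (1.38 ± 0.23, adjusted p = 0.00120). Endothelial lipase (Lipg) rose by 1.81 ± 0.35, the VLDL receptor (Vldlr) by 1.08 ± 0.21 and the carboxylesterase Ces1g by 1.07 ± 0.094. Fabp1, the abundant cytosolic fatty acid binder, was not called (3104 ± 402 CPM in HFD livers, 2753 ± 377 CPM in normal-diet livers). Lipoprotein lipase (Lpl) had 0.081 ± 0.44 (adjusted p = 0.910).

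Fatty acid oxidation genes fell more often than they rose. In the mitochondrial list 6 of 29 members rose and 13 fell, and in the peroxisomal list 5 of 31 rose and 11 fell. Among ketogenesis genes and other PPARalpha targets 4 of 30 rose and 10 fell. The medians of these lists were -0.16, -0.16 and -0.24, and -0.034, -0.034 and -0.13 scaled by library size alone. HFD replicates 1 and 4, the HFD livers with acinar transcripts, stood below replicates 2 and 3 in many of these falls. This was so for 9 of the 13 mitochondrial, 7 of the 11 peroxisomal and 7 of the 10 ketogenesis and PPARalpha falls. The share among all fallen genes was not counted, and the part of the acinar livers in this was not tested. Without normal-diet replicate 2 the mitochondrial list had 8 falls, and without the acinar libraries the 3 lists had 1, 2 and 5 falls, where 1.66% of all genes were called lower. Ehhadh, the bifunctional enzyme of peroxisomal oxidation (chromosome 16, 21761285 to 21787834), fell to 665, 659, 767 and 486 CPM in HFD livers, against 3864, 3469 and 4512 CPM in normal-diet livers (-2.62 ± 0.19, adjusted p = 1.00e-05). Acot1, a cytosolic acyl-CoA thioesterase, fell to 77.1, 93.6, 126 and 49.5 CPM, against 442, 331 and 419.9 CPM on normal diet (-2.200 ± 0.30). Cyp4a14 had 2172, 2380.4, 2775 and 1592 CPM against 8751, 8532 and 8880.2 CPM (-1.97 ± 0.23). All 3 are known PPARalpha targets, and in each HFD replicate 4 was the lowest liver and no HFD liver reached a normal-diet liver. Cyp4a12b fell by 2.38 ± 0.31, Cyp4a31 by 1.23 ± 0.17 and the thioesterase Acot5 by 2.37 ± 0.30.

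The core enzymes changed less. Cpt1a, which commits fatty acids to mitochondrial import, fell by 0.39 ± 0.11, Hadha of the trifunctional protein by 0.38 ± 0.085 and Acadl by 0.33 ± 0.085. Acadm, the medium-chain dehydrogenase, had 0.091 ± 0.10 (adjusted p = 0.534). Some members rose. Hadh, the short-chain hydroxyacyl-CoA dehydrogenase, had 503, 539.9, 538 and 557 CPM in HFD livers and 320.3, 352 and 345 CPM in normal-diet livers (0.66 ± 0.071). The medium-chain acyl-CoA synthetases Acsm5 and Acsm3, the reductase Pecr and the ketone body enzyme Bdh1 rose by 0.74 ± 0.069, 0.53 ± 0.072, 0.71 ± 0.080 and 0.47 ± 0.13. Some known targets were not called, namely the hepatokine gene Fgf21 (-0.28 ± 0.45, adjusted p = 0.682), the kinase gene Pdk4 (-0.96 ± 0.42, adjusted p = 0.111) and Pex11a of peroxisome division (-0.34 ± 0.13, adjusted p = 0.0731), and all 3 had the opposite sign without the acinar libraries. The Cpt1a and Acadl calls were lost without normal-diet replicate 2 and with libraries scaled by size alone, that of Cpt1a also without HFD replicate 1 or 2, and that of Bdh1 without normal-diet replicate 1 or 2.

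**Figure D3:**
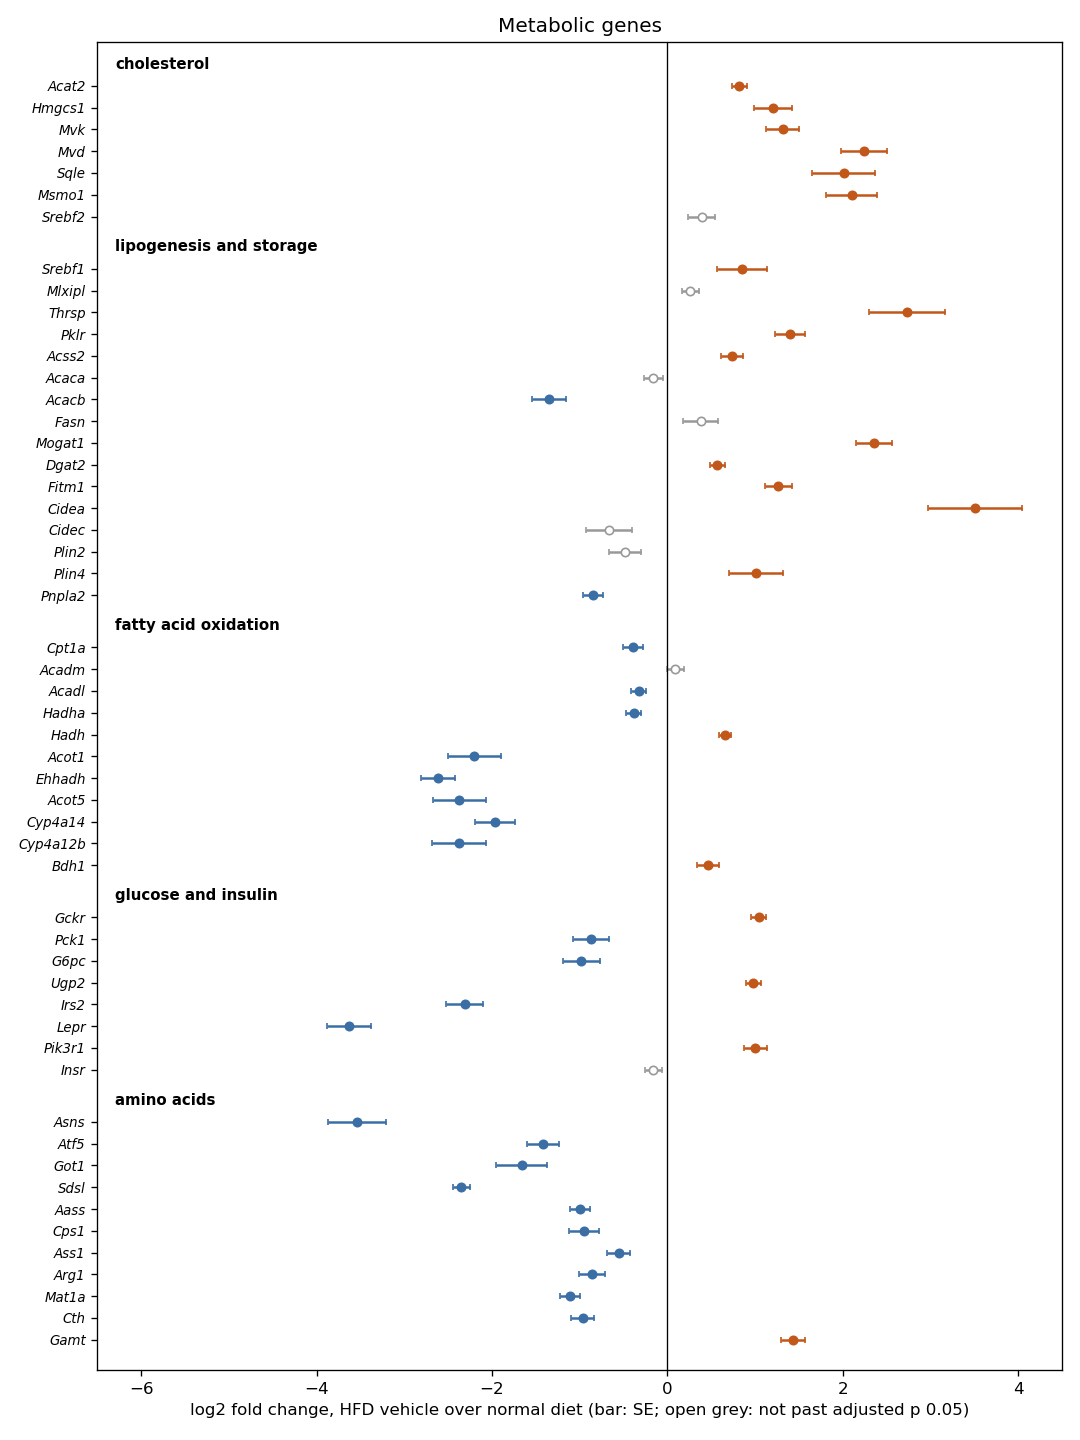
Log2 fold change of named metabolic genes, HFD vehicle over normal diet, with SE bars and open grey points where adjusted p was not under 0.05. The sterol genes lie to the right of 0, Ehhadh, Acot1, Acot5 and Cyp4a12b between -2.62 and -2.20, and Lepr and Asns farthest left at -3.63 and -3.54.

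Bile acid genes were called in both directions in the synthesis and transport lists, 42.9% and 40.9% of members against 27.8% of all genes. Among all genes 15.2% were higher and 12.6% lower. Of 21 synthesis genes 6 rose and 3 fell (median 0.0020), with 1 fall without normal-diet replicate 3 or HFD replicate 1 or 4. Akr1c6, a hydroxysteroid dehydrogenase, had 796, 824, 847 and 904 CPM in HFD livers and 227, 285 and 402 CPM in normal-diet livers (1.47 ± 0.18). Cyp7a1, the rate-limiting enzyme of bile acid synthesis, had 101, 249, 178 and 265 CPM against 35.9, 126 and 60.2 CPM (1.42 ± 0.49, adjusted p = 0.0483). Its libraries overlapped, and the call was lost without normal-diet replicate 1 or 3 or any of HFD replicates 2 to 4. The enzymes Akr1d1 and Hsd3b7 rose by 0.95 ± 0.13 and 0.61 ± 0.070, and Cyp39a1, an oxysterol hydroxylase, fell by 1.27 ± 0.16. Cyp7b1 of the alternative pathway fell by 0.56 ± 0.19 with overlapping libraries, a call lost in 5 of the 7 fits that leave out 1 library. Cyp27a1 (-0.33 ± 0.11, adjusted p = 0.0503) and Cyp8b1, which makes cholic acid (-0.36 ± 0.23, adjusted p = 0.268), were not called. Of 22 transporter genes 5 rose and 4 fell, with 2 falls without normal-diet replicate 2 or 3 or HFD replicate 1 or 2. The rises included the uptake carriers Slco1b2 (0.97 ± 0.12) and Slc10a2 (0.99 ± 0.21), the canalicular export pump Abcb11 (0.47 ± 0.11), the basolateral exporter Abcc3 (0.51 ± 0.089) and the HDL receptor Scarb1 (0.44 ± 0.078). The main bile acid uptake carrier Slc10a1 (0.22 ± 0.12, adjusted p = 0.202) and the sterol exporter gene Abcg5 (0.13 ± 0.12, adjusted p = 0.488) were not called.

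Glucose genes moved in both directions. Of 44 genes of gluconeogenesis, glycolysis and glycogen 12 rose and 9 fell. Gckr, a regulator of glucose phosphorylation in hepatocytes, had 73.5, 77.8, 91.3 and 83.7 CPM in HFD livers and 37.2, 38.4 and 43.4 CPM in normal-diet livers (1.04 ± 0.088) and was higher in all 4 HFD livers. Ugp2, which makes UDP-glucose for glycogen, rose by 0.98 ± 0.087, and the urate and hexose transporter Slc2a9 by 0.84 ± 0.094. Pck1, which opens gluconeogenesis, fell to 1229.7, 1199, 1832 and 1308 CPM, against 1983, 3031 and 2615 CPM on normal diet (-0.87 ± 0.20), and glucose-6-phosphatase (G6pc) to 157, 156, 262 and 139 CPM, against 300.3, 463 and 295 CPM (-0.98 ± 0.21). HFD replicate 3 was the highest HFD liver for both.

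Of 31 insulin and leptin signalling genes 5 rose and 10 fell (median -0.081, 0.042 scaled by library size alone). Irs2, the insulin receptor substrate that insulin itself represses, fell to 10.8, 8.14, 10.7 and 8.87 CPM in HFD livers, against 39.99, 59.00 and 44.4 CPM in normal-diet livers (-2.31 ± 0.21, adjusted p = 2.83e-05). Igfbp1 fell by 2.09 ± 0.44 and Igfbp2 by 1.54 ± 0.21, both binding proteins of insulin-like growth factors. Pik3r1, the regulatory subunit of phosphoinositide 3-kinase, rose to 81.4, 104, 112 and 103 CPM, against 56.4, 46.4 and 47.3 CPM (1.000 ± 0.13). The insulin receptor gene Insr was not called (-0.16 ± 0.093, adjusted p = 0.226).

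Amino acid genes moved in both directions. Of 55 genes of the urea cycle and amino acid breakdown 15 rose and 17 fell. Cps1, the first enzyme of the urea cycle, fell to 2268, 2374, 2232 and 2068 CPM in HFD livers, against 4174, 5469.7 and 3332 CPM in normal-diet livers (-0.95 ± 0.17). Ass1 fell by 0.56 ± 0.13 and arginase (Arg1) by 0.86 ± 0.15. Sdsl, a serine dehydratase-like enzyme, had 6.099, 6.06, 6.197 and 5.49 CPM against 33.4, 32.99 and 24.7 CPM (-2.35 ± 0.10, adjusted p = 3.36e-07), with the HFD livers close together. Aass of lysine breakdown fell by 0.999 ± 0.11, Acmsd of tryptophan breakdown by 1.71 ± 0.20 and the glutaminase Gls2 by 0.65 ± 0.12, while the aminotransferase Agxt2 rose by 1.02 ± 0.10. Tyrosine aminotransferase (Tat) had -0.69 ± 0.28 and was not called (adjusted p = 0.0853).

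Of 37 genes of methionine, folate and one-carbon metabolism 6 rose and 10 fell. Mat1a, which makes S-adenosylmethionine in the liver, had 4501, 4451, 4373 and 4226 CPM in HFD livers and 9744, 10662 and 8049 CPM in normal-diet livers (-1.11 ± 0.11, adjusted p = 4.90e-05). The methyl-consuming enzyme Nnmt fell by 0.91 ± 0.091, and Gamt, the methyltransferase of creatine synthesis, rose by 1.43 ± 0.14. Bhmt and Pemt, which use or make methylated choline compounds, were not called (-0.16 ± 0.17 and 0.0091 ± 0.086, adjusted p = 0.504 and 0.948), and Gnmt fell by 0.26 ± 0.091 with overlapping libraries, a call lost in 5 of the 7 fits that leave out 1 library.

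Of 38 targets of the stress factor ATF4 8 rose and 5 fell, where 15.2% of all genes were higher and 12.6% lower. There were 8 falls without normal-diet replicate 3. Asns fell most. Atf5 had 228, 199, 295 and 172 CPM in HFD livers and 587, 611 and 599 CPM in normal-diet livers (-1.42 ± 0.18), Got1 fell by 1.66 ± 0.29 and cystathionine lyase (Cth) by 0.96 ± 0.13. Ddit3, which encodes CHOP, rose to 6.68, 9.58, 6.55 and 6.52 CPM, against 4.55, 2.82 and 4.21 CPM (0.92 ± 0.19). Of members named after their values were seen, the cystine transporter Slc7a11 had 80 counts in HFD libraries and 2 in normal-diet libraries, a ratio of 26.8 with a 95% counting interval of 7.19 to 225, and Gdf15 rose by 2.31 ± 0.50. The call of Slc7a11 was lost without normal-diet replicate 1. Atf4 itself (-0.27 ± 0.10, adjusted p = 0.0570), Trib3 (0.24 ± 0.21, adjusted p = 0.439) and Psat1 (0.22 ± 0.33, adjusted p = 0.654) were not called. The C/EBP-ATF response element letters TGATGNAA (either strand) occurred in 12 of 32 windows of the list, 37.5%, against 3.06% of all windows. The Asns window is shown as that of the member with the largest fall (RefSeq, GRCm38.p6, chr6:7693160-7693459, - strand, match in capitals).
Asns: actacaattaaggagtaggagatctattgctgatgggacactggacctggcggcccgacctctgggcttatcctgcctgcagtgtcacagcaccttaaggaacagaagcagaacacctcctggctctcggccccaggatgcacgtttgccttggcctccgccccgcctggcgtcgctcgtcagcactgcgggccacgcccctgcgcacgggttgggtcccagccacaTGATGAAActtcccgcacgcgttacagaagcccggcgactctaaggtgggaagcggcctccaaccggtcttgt

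Circadian clock genes changed in both directions. Of 21 tested members 9 rose and 6 fell (median 0.54, 0.89 without the acinar libraries). Arntl, the core activator also called Bmal1, fell to 14.5, 11.4, 11.02 and 7.21 CPM in HFD livers, against 26.4, 29.04 and 26.01 CPM in normal-diet livers (-1.299 ± 0.23, adjusted p = 0.00170). Cry1, a late repressor, had 6.84, 8.74, 7.73 and 5.35 CPM against 23.4, 20.7 and 13.7 CPM (-1.43 ± 0.18), and Clock fell by 0.40 ± 0.11, a call lost without normal-diet replicate 3 or HFD replicate 4. Nr1d1, which encodes REV-ERBalpha and represses Arntl, had 47.4, 53.1, 49.01 and 68.9 CPM against 7.17, 6.12 and 16.3 CPM (2.47 ± 0.32). The output factor Dbp had 6.02, 6.85, 10.6 and 22.5 CPM against 0.991, 0.940 and 0.736 CPM (3.68 ± 0.50), and Hlf rose by 0.65 ± 0.079. HFD replicate 4 was the lowest liver for Arntl and Cry1 and the highest for Nr1d1 and Dbp. Of members named after their values were seen, Npas2 (-1.59 ± 0.23) and Nfil3 (-1.003 ± 0.17) fell, and Nr1d2 (0.81 ± 0.16), Tef (1.02 ± 0.14), Per2 (0.92 ± 0.17), Per3 (1.398 ± 0.33) and Ciart (2.11 ± 0.54) rose. Per1 was not called (-0.020 ± 0.24, adjusted p = 0.960). The hour of collection, with which the level of these genes cycles, is not given in the labels. The Ciart call was lost without normal-diet replicate 2 or 3.

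**Figure D4:**
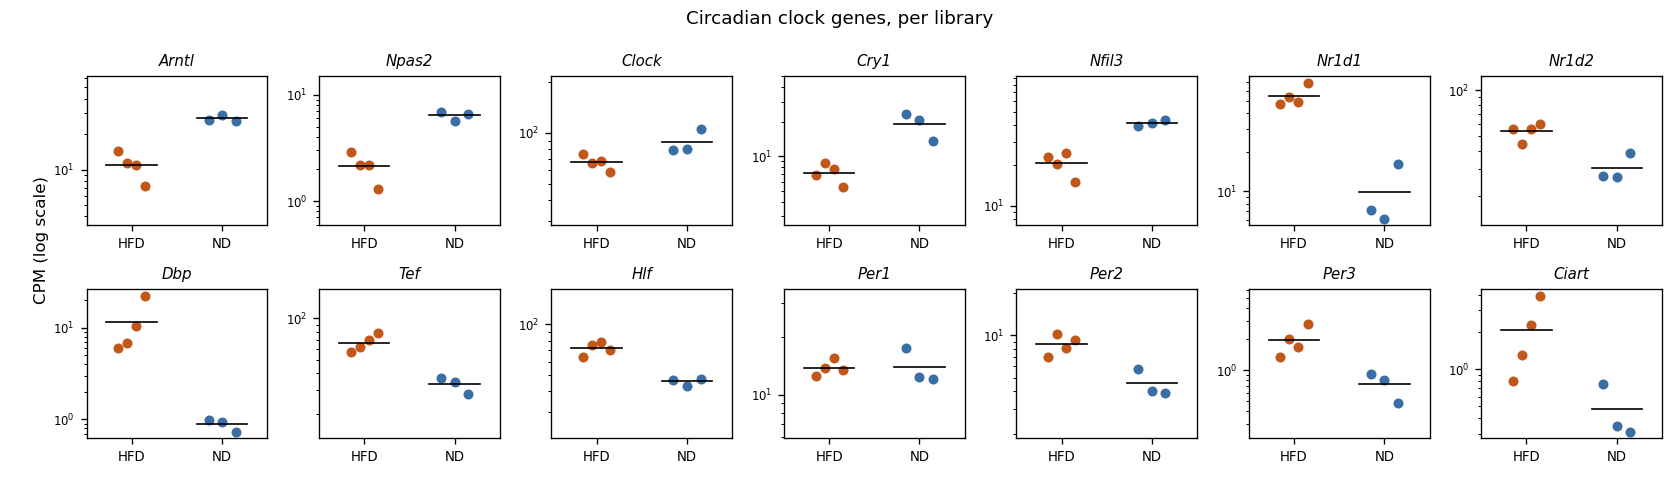
CPM (log scale) of 14 clock genes per library, HFD vehicle (n = 4) left of normal diet (n = 3), bar at the mean. Arntl, Npas2, Clock, Cry1 and Nfil3 are lower on HFD, Nr1d1, Nr1d2, Dbp, Tef, Hlf, Per2, Per3 and Ciart higher, and Per1 overlaps.

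The E-box letters CACGTG, bound by the CLOCK and BMAL1 pair, occurred in 5 of 18 clock gene windows (27.8%), against 11.1% of all windows, and the D-box letters TTATGNAA in 3 of 18 (16.7%), against 2.85%. The Cry1 window is shown as the called E-box holder of smallest p (RefSeq, GRCm38.p6, chr10:85185005-85185304, - strand, E-box in capitals).
Cry1: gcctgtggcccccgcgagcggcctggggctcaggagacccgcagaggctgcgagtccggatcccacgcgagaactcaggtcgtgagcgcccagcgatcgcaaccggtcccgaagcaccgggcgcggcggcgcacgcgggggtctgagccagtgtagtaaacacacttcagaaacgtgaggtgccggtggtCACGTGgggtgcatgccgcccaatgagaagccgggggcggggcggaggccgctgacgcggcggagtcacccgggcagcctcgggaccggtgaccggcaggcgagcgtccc

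Several endoplasmic reticulum chaperones rose by small amounts. Of 30 genes of the unfolded protein response 16 rose and 2 fell, with a median of 0.37, and 8 rose when normal-diet replicate 2 was left out or the acinar libraries were. Hspa5, the main chaperone (BiP), had 1137, 1052, 898 and 966 CPM in HFD livers and 737, 524 and 804 CPM in normal-diet livers (0.56 ± 0.13). Manf rose by 0.91 ± 0.17, Pdia4 by 0.58 ± 0.12 and the sensor kinase Eif2ak3 (PERK) by 0.63 ± 0.11. Xbp1 was not called at the gene level (0.19 ± 0.095, adjusted p = 0.147). Normal-diet replicate 2 was the lowest liver for Hspa5, Manf and Pdia4.

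The drug-metabolising P450s changed member by member. In the list of Cyp2a, Cyp2b and Cyp3a genes with their receptors, 10 of 30 rose and 9 fell, with 3 and 4 falls without normal-diet replicates 1 and 2. Cyp3a11, a major xenobiotic P450 and target of the receptor PXR, fell to 669.6, 676, 913 and 1154 CPM in HFD livers, against 3157, 4402 and 3409 CPM in normal-diet livers (-2.100 ± 0.27). Cyp2a22 and Cyp2d40 rose by 2.804 ± 0.30 and 1.26 ± 0.12. Cyp2b10, the usual marker of the receptor CAR, had 4.89, 11.8, 5.96 and 11.03 CPM against 29.5, 13.2 and 12.9 CPM and was not called (-1.14 ± 0.63, adjusted p = 0.199), although its family members Cyp2b9 and Cyp2b13 rose. The receptor genes had 0.32 ± 0.11 for Nr1i3 (CAR, adjusted p = 0.0516) and -0.43 ± 0.14 for Nr1i2 (PXR, adjusted p = 0.0384), the second lost in 5 of the 7 fits that leave out 1 library.

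Sulfotransferases rose in 7 of 11 tested members and fell in 1. Sult1c2 had 5.75, 4.84, 6.37 and 8.78 CPM in HFD livers and 1.18, 1.55 and 1.45 CPM in normal-diet livers (2.21 ± 0.22). Sult1b1 rose by 1.33 ± 0.19, Sult5a1 by 0.83 ± 0.19 and Papss1, which makes the sulfate donor, by 0.66 ± 0.10. Sult1e1, which inactivates oestrogens, rose by 1.55 ± 0.52 (adjusted p = 0.0418) with overlapping libraries, a call lost in 4 of the 7 fits that leave out 1 library. Among glutathione and NRF2 genes 11 of 42 rose and 9 fell. The transferase Gsta3 rose to 1075, 1165, 1079 and 1144 CPM, against 605, 692 and 597 CPM (0.82 ± 0.084), Gsta1, Mgst3 and the carboxylesterase Ces2g rose by 1.75 ± 0.40, 0.88 ± 0.12 and 1.01 ± 0.11, and Gstp1, a male-biased transferase, fell to 279, 343, 368 and 268 CPM, against 825, 1138 and 621 CPM (-1.45 ± 0.18). The classical NRF2 targets Nqo1 (0.36 ± 0.18, adjusted p = 0.148), Gclc (0.13 ± 0.13, adjusted p = 0.488) and Gstm1 (0.32 ± 0.12, adjusted p = 0.0653) were not called. Gstp1 and Gstp2 are near-identical, and reads may have been split between them.

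Sex-biased genes of the male livers changed in both lists. Male-biased genes rose in 6 and fell in 16 of 38 tested members (median -0.54), and female-biased genes rose in 15 and fell in 11 of 36 (median 0.14, -0.091 without the acinar libraries). Without normal-diet replicate 2, 10 male-biased and 7 female-biased genes fell. In male mice, pulses of growth hormone acting through STAT5 keep this pattern. Beside Gstp1, the male-biased Ugt2b1 had 281, 298, 306 and 194 CPM in HFD livers and 557, 561 and 674 CPM in normal-diet livers (-1.15 ± 0.15), and C8b and Cyp4a12a fell by 1.22 ± 0.14 and 1.11 ± 0.31, the call of the last gene being lost without normal-diet replicate 3. Of female-biased genes, Cyp2b9, Hao2 and Slc22a27 were among the largest rises and Rtn4 and Cyp2a4 rose by 0.84 ± 0.11 and 1.097 ± 0.30, whereas Cyp17a1 fell by 1.22 ± 0.15, A1bg was among the largest falls and Cyp3a41a, named after its values were seen, fell by 3.07 ± 0.96. The Cyp2a4 call was lost without normal-diet replicate 2 or 3, and that of Cyp3a41a in 5 of the 7 fits that leave out 1 library. The male-biased steroid dehydrogenase Hsd3b5 had 4.02, 12.9, 20.1 and 0.279 CPM against 3.56, 6.49 and 10.7 CPM and was not called (adjusted p = 0.736), and Slco1a1 (-1.001 ± 0.41, adjusted p = 0.0907) and Elovl3 (-0.53 ± 0.28, adjusted p = 0.190) were not called either. HFD replicate 4 was the lowest HFD liver for all 3.

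In the growth hormone and STAT5 list 2 of 20 rose and 7 fell. The receptor gene Ghr had 517, 532, 496 and 522 CPM in HFD livers and 253, 297 and 330.2 CPM in normal-diet livers (0.82 ± 0.084, adjusted p = 5.53e-05), and Stat5a rose by 0.63 ± 0.078. The feedback inhibitor Socs2 fell by 1.56 ± 0.33, Igf1 by 0.42 ± 0.11 and Serpina3k by 1.11 ± 0.17. The call of Igf1 was lost without normal-diet replicate 2. Stat5b (0.10 ± 0.10, adjusted p = 0.495) and the repressor Bcl6 (0.70 ± 0.35, adjusted p = 0.159) were not called. The summed major urinary protein transcripts reached 35760 to 61199 CPM in HFD livers and 67349 to 77664 CPM in normal-diet livers, without overlap, and 5 of 21 members were called lower. That count was 3 without normal-diet replicate 1 or 2, 2 without HFD replicate 1 and 8 without HFD replicate 3.

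Zonation and identity genes of hepatocytes also shifted. Of 37 pericentral and periportal genes 13 rose and 8 fell. Glutamine synthetase (Glul), made in the last cells before the central vein, had 1348, 1714, 1361 and 1618 CPM in HFD livers and 897, 722 and 850.0 CPM in normal-diet livers (0.88 ± 0.11). Lect2 had 96.9, 118, 93.3 and 112 CPM against 28.5, 29.4 and 31.4 CPM (1.82 ± 0.10, adjusted p = 1.90e-06), and Slc13a3 and Hsd17b6 rose by 2.59 ± 0.24 and 1.98 ± 0.19. The Wnt target Axin2 (-0.50 ± 0.23, adjusted p = 0.122) and the periportal genes Hal (-0.47 ± 0.18, adjusted p = 0.0652) and Cyp2f2 (-0.10 ± 0.082, adjusted p = 0.371) were not called. Of 30 identity genes 5 rose and 9 fell. The master regulator Hnf4a had 534, 555, 581 and 568 CPM against 891, 779.9 and 789.5 CPM (-0.55 ± 0.073, adjusted p = 0.000277) and Foxa1 fell by 0.53 ± 0.086, while Cebpa was not called (-0.11 ± 0.074, adjusted p = 0.316).

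Most interferon-response genes rose in the HFD livers. Of 49 tested interferon-stimulated genes 35 rose and 1 fell (median 0.81), and of 17 interferon-gamma-induced GTPases, which attack pathogen vacuoles, 16 rose and 0 fell (median 1.65). Without the acinar libraries the medians were 0.62 and 1.09, and 8 and 5 members were called higher, where 2.41% of all genes were. Ifit3, an RNA-binding antiviral protein, had 36.1, 27.1, 30.6 and 40.8 CPM in HFD livers and 6.67, 6.14 and 10.3 CPM in normal-diet livers (2.13 ± 0.20, adjusted p = 3.47e-05). Samd9l had 30.00, 26.7, 26.6 and 38.8 CPM against 8.18, 10.7 and 9.88 CPM (1.67 ± 0.15), and Gbp10 had 109.8, 39.7, 30.3 and 56.7 CPM against 3.92, 3.59 and 7.12 CPM (3.601 ± 0.45). In 32 of the 35 risen interferon-stimulated genes and in all 16 risen GTPases, HFD replicates 1 and 4 both stood above replicates 2 and 3, which was so for 28.3% of all genes that rose. The part of the acinar livers in this was not tested. Isg15 rose by 1.096 ± 0.17 and Oasl2 by 1.44 ± 0.26. Irf7, the amplifier of type I interferon, was not called (0.38 ± 0.16, adjusted p = 0.0846). Of the other GTPases, Gbp6 rose by 2.61 ± 0.37, Gbp2 by 2.42 ± 0.43, Ifi47 by 1.71 ± 0.25, Irgm1 by 0.94 ± 0.16 and Iigp1 by 0.61 ± 0.17. The call of Iigp1 was lost without normal-diet replicate 1 or 2 or without HFD replicate 1.

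The promoter windows of these genes are shown because 18 of 37 interferon-stimulated genes (48.6%) and 9 of 10 GTPases (90.0%) with a window held the letters of the interferon-stimulated response element (GAAA, 2 bases of any kind, GAAA) on either strand, against 461 of 11748 tested genes (3.92%). The 4 shown are those of called holders with the smallest p (RefSeq, GRCm38.p6, all on the + strand), with matches in capitals, each read as TTTC, 2 bases, TTTC on the strand shown. They lie at chr19:34583279-34583578 (Ifit3), chr19:34607707-34608006 (Ifit3b), chr19:34640639-34640938 (Ifit1) and chr3:142530086-142530385 (Gbp7). The Ifit3 and Ifit3b windows lie wholly downstream of the listed gene starts, 34583119 and 34607530. Those of Ifit1 and Gbp7 span the listed gene start. The Ifit windows held 2 matches each and the Gbp7 window 1. Ifit3b rose by 2.201 ± 0.22, Ifit1 by 1.85 ± 0.19 and Gbp7 by 1.65 ± 0.24, and Ifit3 and Ifit3b are near-identical copies whose reads may have been split.
Ifit3: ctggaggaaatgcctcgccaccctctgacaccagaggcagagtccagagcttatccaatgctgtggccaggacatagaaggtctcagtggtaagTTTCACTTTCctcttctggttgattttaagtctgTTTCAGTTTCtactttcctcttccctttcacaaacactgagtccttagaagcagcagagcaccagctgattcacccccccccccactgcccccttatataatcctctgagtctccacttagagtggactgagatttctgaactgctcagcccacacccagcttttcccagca
Ifit3b: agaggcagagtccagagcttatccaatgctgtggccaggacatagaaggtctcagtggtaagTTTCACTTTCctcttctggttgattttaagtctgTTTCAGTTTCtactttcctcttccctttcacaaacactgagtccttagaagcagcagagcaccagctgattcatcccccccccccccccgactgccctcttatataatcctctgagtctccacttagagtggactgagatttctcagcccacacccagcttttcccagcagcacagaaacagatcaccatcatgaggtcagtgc
Ifit1: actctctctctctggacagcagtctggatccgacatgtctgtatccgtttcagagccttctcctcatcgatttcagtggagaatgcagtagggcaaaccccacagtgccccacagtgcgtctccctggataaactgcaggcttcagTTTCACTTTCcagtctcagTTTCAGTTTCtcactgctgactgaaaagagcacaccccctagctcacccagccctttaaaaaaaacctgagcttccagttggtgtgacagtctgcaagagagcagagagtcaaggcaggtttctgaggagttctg
Gbp7: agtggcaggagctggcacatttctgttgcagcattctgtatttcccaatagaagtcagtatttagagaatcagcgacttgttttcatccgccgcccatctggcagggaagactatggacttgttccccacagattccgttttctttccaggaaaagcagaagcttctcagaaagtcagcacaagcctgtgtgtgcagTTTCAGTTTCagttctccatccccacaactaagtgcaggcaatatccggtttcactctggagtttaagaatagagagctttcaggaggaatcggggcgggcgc

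Most antigen presentation genes of both classes rose. Of 21 class I loading and immunoproteasome genes 15 rose and 0 fell (4 rose without the acinar libraries). The immunoproteasome subunit Psmb9 had 25.4, 18.05, 16.2 and 17.4 CPM in HFD livers and 3.86, 5.93 and 5.35 CPM in normal-diet livers (1.93 ± 0.19), and the light chain B2m had 2047, 1657, 1632 and 1756 CPM against 1139.5, 1202 and 1205 CPM (0.58 ± 0.083). Tap1 of the peptide transporter, H2-T22 and Psmb10 rose by 1.16 ± 0.15, 1.03 ± 0.12 and 0.91 ± 0.12, and the classical heavy chain H2-K1 had 0.24 ± 0.091 (adjusted p = 0.0687). Of 11 class II genes 9 rose and 0 fell (median 1.37, and 1.34 with 0 rises by edgeR and 6 at an unadjusted p under 0.05 without the acinar libraries). HFD replicates 1 and 4 stood above replicates 2 and 3 in 11 of the 15 risen class I genes and 8 of the 9 risen class II genes. The chain gene H2-Aa had 62.2, 36.5, 17.9 and 42.2 CPM against 13.4, 10.5 and 14.8 CPM (1.63 ± 0.37), and the invariant chain Cd74 had 129, 82.2, 38.04 and 93.9 CPM against 33.99, 25.1 and 35.5 CPM (1.44 ± 0.36). For both, HFD replicate 1 was highest and replicate 3, the lowest, came close to the normal-diet livers. H2-Eb1 and H2-Ab1 rose by 1.76 ± 0.38 and 1.62 ± 0.36, and the class II transactivator Ciita by 2.08 ± 0.48 with overlapping libraries.

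Chemokine and acute inflammatory genes were called higher more often than lower. Of 30 chemokine and cytokine ligands 12 rose and 1 fell (median 0.81, and 0.72 without the acinar libraries). In 9 of the 12 risen ligands HFD replicates 1 and 4 stood above replicates 2 and 3. Cxcl10, which attracts T cells, had 16.2, 7.75, 5.83 and 12.1 CPM in HFD livers and 1.73, 0.979 and 2.06 CPM in normal-diet livers (2.71 ± 0.41). Ccl2, which attracts monocytes, had 3.58, 1.21, 1.097 and 2.83 CPM against 0.263, 0.250 and 0.276 CPM (3.04 ± 0.50), and Cxcl1, which attracts neutrophils, rose by 3.08 ± 0.40. Replicates 1 and 4 were the highest HFD livers in all 3 genes. Il1b was not called (0.075 ± 0.40, adjusted p = 0.908), and Il18 rose by 0.80 ± 0.13. In the list of NF-kB feedback genes and Toll-like receptors 12 of 33 rose and 1 fell, with Tlr2 at 1.78 ± 0.39, Tlr9 at 2.76 ± 0.67, Tlr3 at 0.85 ± 0.18 and the feedback inhibitor Tnfaip3 at 1.18 ± 0.22, whereas Tlr4 (0.47 ± 0.26, adjusted p = 0.202) and Nfkbia (-0.19 ± 0.090, adjusted p = 0.142) were not called. The letters of the NF-kB element (GGG, 2 bases of any kind, TTTCC, either strand) occurred in 5 of 25 windows of that list and 4 of 21 of the ligand list (19.0%), against 1.98% of all windows. Of 16 inflammasome and itaconate genes 8 rose, among them the adaptor Pycard (1.36 ± 0.35), the pore-forming Gsdmd (0.48 ± 0.12), Ifi211 (1.72 ± 0.44, with overlapping libraries) and Il18bp (1.05 ± 0.25), while Nlrp3 (1.101 ± 0.41, adjusted p = 0.0668) and Casp1 (0.82 ± 0.30, adjusted p = 0.0591) were not called. The calls of Gsdmd and Ifi211 were lost without normal-diet replicate 1, that of Gsdmd also without normal-diet replicate 3 and that of Ifi211 also without normal-diet replicate 2. Of the NF-kB list 5 genes rose without normal-diet replicate 2, 7 without normal-diet replicate 3 or HFD replicate 1, and none by edgeR without the acinar libraries, where 7 had an unadjusted p under 0.05. The inflammasome list had 3 and 4 rises without normal-diet replicates 1 and 2 and 13 without HFD replicate 3, and none without the acinar libraries, where 6 had an unadjusted p under 0.05. All 12 risen genes of the NF-kB list and all 8 of the inflammasome list had HFD replicates 1 and 4 above replicates 2 and 3.

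Acute phase proteins, which hepatocytes secrete in inflammation, rose in 17 of 32 members and fell in 1 (median 0.55, and 0.24 with 3 rises without the acinar libraries). Serum amyloid A2 (Saa2) had 127, 49.7, 49.2 and 137 CPM in HFD livers and 8.83, 7.85 and 5.22 CPM in normal-diet livers (3.64 ± 0.64). Saa4, its constitutive relative, had 346, 339.9, 402 and 504 CPM against 102, 88.1 and 118 CPM (1.95 ± 0.22), and Serpina3n had 659, 557, 614 and 653 CPM against 263, 337 and 255 CPM (1.12 ± 0.11). In 12 of the 17 risen acute phase genes HFD replicates 1 and 4 stood above replicates 2 and 3, against 28.3% of all genes that rose. Saa2 and Serpina3n showed this order and Saa4 did not, while Saa4 and Serpina3n varied less among the 4 HFD livers. The part of the acinar livers in this was not tested. Saa1 rose by 3.08 ± 0.69. Haptoglobin (Hp, -0.081 ± 0.11) and orosomucoid (Orm1, -0.16 ± 0.20) were not called, with adjusted p = 0.611 and 0.582.

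Macrophage markers were called higher more often than lower. Of 28 lipid-associated macrophage and monocyte markers 20 rose and 2 fell (median 1.43), and of 21 Kupffer and pan-macrophage markers 8 rose and 1 fell (median 0.74). The first list also holds Apoe, named above among transcripts of hepatocytes, and Cd36, named above under fatty acid uptake. The Kupffer count was 2 without normal-diet replicate 2, 4 without normal-diet replicate 1 or HFD replicate 1 or 4, and 14 without HFD replicate 3. Without the acinar libraries 2 markers of the first list rose and no Kupffer marker was called by edgeR, although 10 were higher at an unadjusted p under 0.05. HFD replicates 1 and 4, with acinar transcripts, stood above replicates 2 and 3 in 17 of the 20 risen markers of the first list and in all 8 risen Kupffer markers, and the part of the acinar livers in this was not tested. Mpeg1, the pore protein perforin-2, had 164, 80.8, 53.7 and 128 CPM in HFD livers and 33.3, 30.5 and 42.5 CPM in normal-diet livers (1.59 ± 0.30). Cx3cr1, a chemokine receptor of monocytes, had 2.18, 1.704, 0.855 and 3.23 CPM against 0.325, 0.288 and 0.276 CPM (2.74 ± 0.40), and Atp6v0d2, a subunit of the lysosomal proton pump, 5.61, 6.56, 5.16 and 5.48 CPM against 0.403, 1.78 and 1.43 CPM (2.26 ± 0.34). Trem2, the lipid-sensing receptor, rose by 1.82 ± 0.45 at a level under 1.5 CPM, and Gpnmb by 2.900 ± 0.97 (adjusted p = 0.0429), a call lost in 6 of the 7 fits that leave out 1 library and under DESeq2. Aif1, Folr2 and Ly6c2 rose by 1.37 ± 0.30, 0.92 ± 0.25 and 1.98 ± 0.53, the last 2 with overlapping libraries, and the lysosomal protease Ctsb by 0.49 ± 0.068. The calls of Folr2 and Ly6c2 were lost without normal-diet replicate 2, and that of Ly6c2 also without normal-diet replicate 1. Cd68 rose by 1.35 ± 0.38 with overlapping libraries, a call lost without HFD replicate 1 or 4 or normal-diet replicate 1 or 2. The Kupffer cell markers Clec4f (0.59 ± 0.23, adjusted p = 0.0738), Timd4 (0.55 ± 0.34, adjusted p = 0.258) and Adgre1 (1.03 ± 0.37, adjusted p = 0.0543) were not called, and the tetraspanin Cd9 fell by 0.71 ± 0.10.

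Lymphocyte and plasma cell markers rose in 3 of 32 members. That count was 0 without normal-diet replicate 1 or HFD replicate 2, 1 without normal-diet replicate 2 or 3 and 9 without HFD replicate 3. Cd8b1 rose by 3.15 ± 0.94, Ms4a1 by 1.898 ± 0.61 and Cd4 by 0.98 ± 0.32, all at under 2 CPM and each lost in at least 4 of the 7 fits that leave out 1 library. Cd3e, Cd8a (0.71 ± 0.86, adjusted p = 0.573) and Nkg7 (0.97 ± 0.84, adjusted p = 0.420) were not called, nor was the immunoglobulin heavy chain gene Ighm (3.75 ± 1.32, adjusted p = 0.0513).

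Most collagen genes rose, while most stellate cell markers were not called. Of 23 tested collagens 15 rose and 1 fell (median 0.74, and 0.57 with 1 rise without the acinar libraries). Col1a1, a chain of the main scar collagen, had 18.7, 15.8, 9.89 and 24.9 CPM in HFD livers and 3.96, 2.96 and 1.82 CPM in normal-diet livers (2.57 ± 0.41). Col3a1 had 56.99, 49.4, 28.8 and 84.3 CPM against 9.803, 9.52 and 10.2 CPM (2.48 ± 0.33), and Col5a3 14.6, 16.97, 16.4 and 17.3 CPM against 5.23, 6.08 and 5.499 CPM (1.54 ± 0.13, adjusted p = 2.31e-05). Replicate 4 was the highest HFD liver and replicate 3 the lowest for Col1a1 and Col3a1, while Col5a3 was even across the 4. HFD replicates 1 and 4 stood above replicates 2 and 3 in 9 of the 15 risen collagens, against 28.3% of all genes that rose. Col1a2 rose by 1.64 ± 0.33, Col4a1 of basement membranes was not called (0.60 ± 0.22, adjusted p = 0.0621), and Col13a1 fell by 0.88 ± 0.15. Of 51 matrix proteins and remodelling enzymes 17 rose and 2 fell (median 0.44, and 0.26 without the acinar libraries). There were 10 rises without normal-diet replicate 1, 11 without normal-diet replicate 3 or HFD replicate 4, and 26 without HFD replicate 3. In 12 of the 17 risen matrix genes HFD replicates 1 and 4 stood above replicates 2 and 3. Mmp12, a macrophage elastase, rose by 3.07 ± 0.62, the protease inhibitor Timp1 by 3.52 ± 0.93, Mmp15 by 0.64 ± 0.087 and the collagen chaperone Serpinh1 by 1.11 ± 0.17. Fibronectin (Fn1, 0.018 ± 0.12, adjusted p = 0.926) and lysyl oxidase (Lox, 0.63 ± 0.41, adjusted p = 0.281) were not called.

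Of 23 stellate cell markers 2 rose and 1 fell. Acta2, the actin of activated stellate cells, had 3.902, 5.395, 1.27 and 2.801 CPM in HFD livers and 5.39, 1.59 and 2.23 CPM in normal-diet livers (0.12 ± 0.61, adjusted p = 0.908), and Pdgfrb (0.35 ± 0.21, adjusted p = 0.231), Lrat (0.12 ± 0.19, adjusted p = 0.676) and Des (-1.15 ± 0.47, adjusted p = 0.0892) were not called. Itga8 and the metalloreductase gene Steap4 rose by 0.88 ± 0.17 and 2.07 ± 0.23, and Pdgfra fell by 0.44 ± 0.13, a call lost without normal-diet replicate 1 or 2. Of 27 endothelial markers 1 rose and 5 fell, with 2 falls without normal-diet replicate 1 or 3 or HFD replicate 4 and 3 without normal-diet replicate 2 or HFD replicate 3. Kdr, the main VEGF receptor, fell by 0.61 ± 0.14, and Flt1, another VEGF receptor, and Ehd3 by 0.54 ± 0.17 and 0.50 ± 0.15, while Plvap of capillary endothelium rose by 0.46 ± 0.12. The calls of Flt1 and Ehd3 were each lost in 3 of the 7 fits that leave out 1 library, and that of Plvap without normal-diet replicate 2. Pecam1 (-0.15 ± 0.15, adjusted p = 0.490), Stab2 (0.28 ± 0.16, adjusted p = 0.209), Lyve1 (0.43 ± 0.25, adjusted p = 0.216) and Clec4g (-0.19 ± 0.17, adjusted p = 0.436) were not called. Of 30 TGF-beta and YAP targets 3 rose and 8 fell (median -0.11, 0.017 scaled by library size alone). The YAP target Ccn2 fell to 6.42, 7.26, 6.47 and 8.96 CPM, against 16.99, 15.01 and 12.8 CPM (-1.04 ± 0.17), the SMAD co-repressor Skil fell by 1.03 ± 0.14, and Tgfb1 was not called (0.31 ± 0.19, adjusted p = 0.256). Wwtr1, which encodes TAZ, rose by 0.74 ± 0.090.

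**Figure D5:**
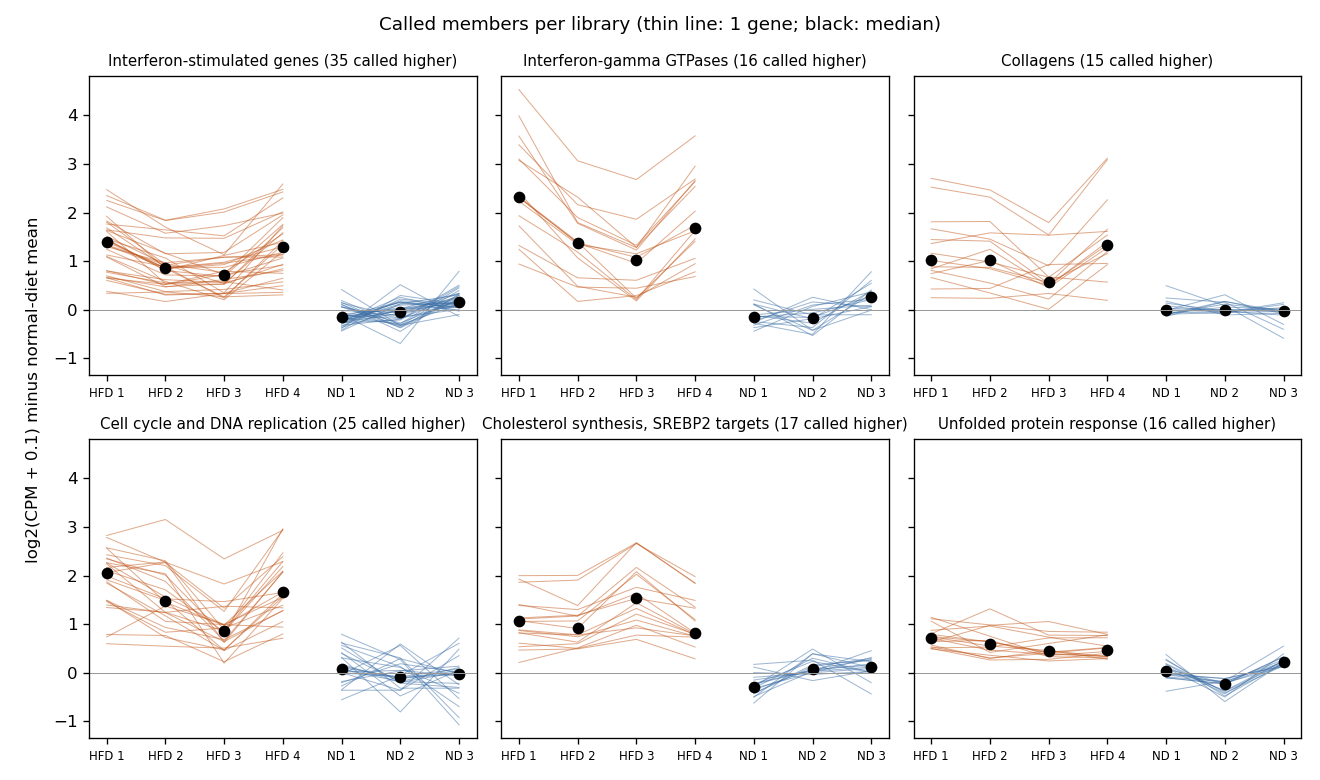
log2(CPM + 0.1) minus the normal-diet mean for called-higher members of 6 lists in HFD vehicle replicates 1 to 4 (orange) and normal-diet replicates 1 to 3 (blue), with a thin line per gene and black points at the median. HFD replicates 1 and 4 are highest for the interferon and GTPase lists (32 of 35 and 16 of 16 genes), and replicate 3 for cholesterol synthesis (17 of 17).

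Iron and heme genes included a change in hepcidin. Of 37 members 12 rose and 6 fell. Hamp, which encodes the iron hormone hepcidin, fell to 65.8, 114, 24.9 and 143 CPM in HFD livers, against 713, 605 and 236 CPM in normal-diet livers (-2.58 ± 0.60, adjusted p = 0.00805), and its inducer Bmp6 fell to 2.35, 2.33, 1.87 and 2.89 CPM, against 6.66, 5.93 and 6.09 CPM (-1.397 ± 0.16). The related gene Hamp2 rose to 11.2, 16.8, 10.9 and 15.9 CPM, against 3.08, 2.15 and 2.72 CPM (2.36 ± 0.31). Hamp was lowest in HFD replicate 3. Other genes of the BMP and SMAD pathway were lower too, namely Smad9 and Smad7 (-0.97 ± 0.16), Id3 (-1.21 ± 0.29) and, named after their values were seen, Id1 (-1.45 ± 0.37), Smad6 (-0.76 ± 0.19) and Bambi (-0.86 ± 0.23, with overlapping libraries). The calls of Smad6 and Bambi were lost without normal-diet replicate 1, and that of Bambi also without normal-diet replicate 2. The ferritin chain Fth1 rose by 0.25 ± 0.074, a call lost in 3 of the 7 fits that leave out 1 library. Alas1, the first enzyme of heme synthesis, rose to 438, 581, 471 and 486 CPM, against 134, 158 and 211 CPM (1.56 ± 0.25). The transferrin receptor Tfrc (0.45 ± 0.18, adjusted p = 0.0777) and heme oxygenase Hmox1 (0.46 ± 0.24, adjusted p = 0.174) were not called.

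Several proliferation genes, at low levels in both groups, rose. Of 47 tested cell cycle and replication genes 25 rose and 1 fell, with a median of 1.25. Without normal-diet replicate 1 there were 16 rises, and without the acinar libraries 1 with a median of 0.69. Mki67, the proliferation marker, had 4.41, 2.67, 1.76 and 3.900 CPM in HFD livers and 1.24, 0.710 and 0.662 CPM in normal-diet livers (1.86 ± 0.37), and Top2a had 3.12, 2.21, 0.888 and 2.54 CPM against 0.588, 0.480 and 0.515 CPM (2.04 ± 0.45). In both, HFD replicate 3 was the lowest HFD liver, and in 17 of the 25 risen genes HFD replicates 1 and 4 stood above the other HFD livers. The transcription factor E2f1 had 3.98, 3.71, 4.05 and 3.96 CPM against 1.502, 1.42 and 1.600 CPM (1.38 ± 0.15, adjusted p = 6.49e-05) and was even across the HFD livers. Tpx2 and Stmn1 rose by 2.15 ± 0.41 and 0.60 ± 0.095, Ccnb1 by 2.16 ± 0.65 with overlapping libraries, a call lost in 5 of the 7 fits that leave out 1 library, and Cdk1 was not called (0.75 ± 0.38, adjusted p = 0.155).

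Of 33 genes of p53, apoptosis and senescence 11 rose and 0 fell. Ccng1 had 72.7, 57.7, 63.3 and 61.5 CPM in HFD livers and 29.3, 28.3 and 29.6 CPM in normal-diet livers (1.13 ± 0.085, adjusted p = 1.21e-05), the death receptor Eda2r rose by 3.34 ± 0.49, the nuclease Aen by 0.86 ± 0.075 and Bid by 0.45 ± 0.080. The p53 targets Cdkn1a (-0.58 ± 0.30, adjusted p = 0.177) and Mdm2 (0.15 ± 0.091, adjusted p = 0.228) were not called. Of 36 annexin, S100 and cytoskeleton genes 15 rose and 2 fell (median 0.43, and 0.34 without the acinar libraries). Annexin A2 (Anxa2) had 30.9, 31.4, 24.7 and 48.1 CPM against 7.201, 7.75 and 6.82 CPM (2.22 ± 0.21, adjusted p = 3.31e-05), Anxa4 and Anxa5 rose by 0.57 ± 0.063 and 0.52 ± 0.14, and S100a11 by 1.17 ± 0.29. The call of Anxa5 was lost without normal-diet replicate 1. The tubulins Tubb2a and Tubb2b, which are near-identical, fell by 1.57 ± 0.20 and 1.52 ± 0.20. Vimentin (Vim) was not called (0.59 ± 0.26, adjusted p = 0.109).

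Of 25 ductular and epithelial injury markers 7 rose and 2 fell. Ly6d had 17.7, 8.83, 15.9 and 17.9 CPM in HFD livers and 3.17, 3.19 and 5.35 CPM in normal-diet livers (1.95 ± 0.32), the ciliary protein gene Pkhd1 rose by 1.199 ± 0.16 and alpha-fetoprotein (Afp) by 2.24 ± 0.36 at under 1 CPM. The bile duct markers Krt19 (0.50 ± 0.35, adjusted p = 0.309) and Epcam (0.47 ± 0.33, adjusted p = 0.320) were not called, and Sox9 fell by 0.59 ± 0.18 with overlapping libraries, a call lost without any of normal-diet replicates 2 and 3 and HFD replicates 2 and 4.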

How the data were processed

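Gene-level raw read counts of mouse liver were used as deposited by the authors, 1 column per library and not normalized. The submitters' processing notes name HISAT2 2.1.0 and StringTie 2.1.3b with mm10 as the build, Trimmomatic 0.38 and FastQC 0.11.7. How reads shared by near-identical genes were counted is not given in the sources used here, so members of such families are uncertain. The 11 libraries of the HFD cohort entered one fit, and every value given is from the HFD vehicle against the normal-diet libraries.

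Genes were filtered with filterByExpr, scaled by TMM factors and tested with edgeR 4.0.16 (R 4.3.3) by the quasi-likelihood F test, with Benjamini-Hochberg adjustment over 15597 genes at 0.05. Values after ± are SE for log2 fold changes (the absolute log2 fold change divided by the square root of F) and SD for CPM. On data simulated from these libraries (15361 genes) the test recovered 32.8% of 1.5-fold, 85.1% of 2-fold and 100% of 4-fold changes, and 9.38% of its calls were false. Only 67, 67 and 66 genes, all with a mean above 1 CPM, were changed by these folds, and genes varied independently. In the data 27.8% of genes were called and some livers held acinar transcripts, so these rates may not hold there. Alternatives were DESeq2 1.42.0, limma-voom 3.58.1, other scalings, filters and sample sets. Lists and members were chosen with earlier results of these data known.

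Named genes are the 10 largest rises and falls among called genes without overlap and with a mean of at least 1 CPM in the higher group, the 10 largest gains and losses in CPM among called genes (predicted and clone names left out), fixed members and the 4 of smallest p of each described list, genes without a count in 1 of the groups, and genes whose promoter is shown. Some genes that this rule names are not reported here. Others are marked as named after their values were seen. Replicate numbers are shared between groups, but the sources used here state no pairing, so the libraries were not treated as pairs. Deviations of same-numbered libraries correlated at 0.17, 0.49 and -0.27. These values cannot decide the question, because replicates 1 and 2 match between the diets in acinar transcripts and replicate 3 does not.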

Additional observations from a re-analysis of the deposited data

Results flagged for a closer look

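Among 338 named genes, 9 had 1 HFD liver far from the other 3 by Dixon's ratio of the gap to the range, taken at its 95% critical value for 4 values. Chance gives about 1 in 20 such groups. HFD replicate 3 stood out in 4 genes. It was highest for the sterol genes Mvd (8.96 CPM, others up to 5.60), Msmo1 (123 CPM, others 70.7 to 76.6) and Srebf2 (56.7 CPM, others 41.5 to 42.2), and for the glucose gene G6pc (262 CPM, others 139 to 157). HFD replicate 2 stood out in 2 genes. Its level of Ighm, an immunoglobulin heavy chain, was 157 CPM (others 3.42 to 8.36) and that of Ddit3 9.58 CPM (others 6.52 to 6.68). HFD replicate 1 was highest for the peptide transporter gene Tap1 (43.6 CPM, others 28.1 to 29.8) and lowest for Apoe (14300 CPM, others 15900 to 16200). HFD replicate 4 was highest for B430212C06Rik (0.743 CPM, others 0.420 to 0.461). The causes were not tested.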

How the results depend on the processing

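Among 15597 genes, 4332 were called, 2374 higher and 1958 lower. Leaving out each replicate in turn gave 3090 to 4376 called, 1691 to 2413 higher and 1399 to 1963 lower, and DESeq2, limma-voom, RLE factors, no filter, a stricter filter and the 2 groups alone gave 3780 to 4922 called. Library size alone gave 1030 lower, without the acinar libraries 655 genes were called (388 higher, 267 lower, 3288 at an unadjusted p under 0.05), and a log2 fold change of at least 1 left 1139 (850 higher, 289 lower). The fits without acinar libraries rest on 1 normal-diet liver. With the replicate number as a block 3388 genes were called, 1899 higher and 1489 lower, and 24 of 262 named calls were lost. Whether the replicate numbers mark pairs is not given in the sources used here. No called named gene changed sign in any alternative, but all alternatives reuse libraries of the main fit. Of the 262, the other alternatives lost 0 (RLE) to 129 (without acinar libraries).

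Genes that were not called changed sign as follows, and the cause was not tested. Without the acinar libraries the log2 fold change was -0.2872 for Epcam, -0.0452 for Irf7, -0.2362 for Pdgfrb, -0.0382 for Pemt, 0.227 for Per1, 0.613 for Fgf21, 0.1095 for Pex11a, 0.0499 for Plin2, 0.2107 for Pdk4 and 0.1332 for Des. With library size alone it was 0.0979 for Per1, 0.0457 for Hp, 0.0226 for Cyp2f2 and 0.0188 for Cebpa. With the block it was -0.0209 for Acta2 and 0.1393 for Per1. Pemt had -0.005 with RLE and -0.0049 with DESeq2, and Hsd3b5 -0.2903 with limma-voom. Leaving out single replicates gave -0.2665 to 0.8973 for Hsd3b5, -0.2125 to 0.799 for Acta2, -0.227 to 1.0083 for Lpl, -0.2812 to 0.5352 for Il1b, -0.0169 to 0.0498 for Fn1, -0.0579 to 0.0732 for Pemt, -0.1152 to 0.1649 for Per1, -0.1558 to 0.0004 for Hp, -0.2747 to 0.0556 for Bhmt, -0.5343 to 0.398 for Fgf21 and -1.526 to 0.1473 for Des.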

Other observations

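Other gene lists were counted in the same test, where 15.2% of all genes were higher and 12.6% lower on HFD. Nuclear-encoded respiratory chain genes and mitochondrially encoded genes were lower where called. Of 52 nuclear-encoded respiratory chain genes none rose and 12 fell, with a summed level of 7595 to 8373 CPM in HFD livers and 8365 to 9364 CPM in normal-diet livers, and 5 fell without normal-diet replicate 2 and 7 without HFD replicate 1. Of 13 mitochondrially encoded genes none rose and 3 fell, with 1 fall without normal-diet replicate 1 or 2 or HFD replicate 1, 2 or 4. The median log2 fold changes of these nuclear and mitochondrial lists were -0.142 and -0.169, but -0.016 and -0.04 scaled by library size alone. Without the acinar libraries, a fit that rests on 1 normal-diet liver, these medians were -0.183 and -0.289. HFD replicates 1 and 4 stood below replicates 2 and 3 in 9 of the 12 nuclear and 2 of the 3 mitochondrial falls. Lysosomal genes rose in 17 and fell in 6 of 46, with 11 rises without normal-diet replicate 1 or HFD replicate 4. Immediate-early genes rose in 8 and fell in 1 of 26, with summed levels of 243 to 295 CPM in HFD livers and 176 to 241 CPM in normal-diet livers, and 4 rose without normal-diet replicate 2. In 7 of these 8 rises HFD replicates 1 and 4 stood above replicates 2 and 3, against 28.3% of all genes that rose.

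Other lipid and drug-metabolising enzymes were called in both directions. Of 35 phospholipid synthesis genes 2 rose and 10 fell, of 28 genes of triglyceride synthesis and VLDL assembly 5 rose and 7 fell, and of 16 desaturases and elongases 1 rose and 4 fell. Triglyceride synthesis had 3 rises without normal-diet replicate 1 or 3 or HFD replicate 4. Desaturases and elongases had 1 fall without normal-diet replicate 3 and 2 falls without any other library but HFD replicate 3, and no rise without normal-diet replicate 1 or HFD replicate 1, 2 or 3. Of 19 UDP-glucuronosyltransferases 5 rose and 5 fell, with 2 rises without normal-diet replicate 1 or 2 and 3 without HFD replicate 1 or 2, and of 27 flavin monooxygenases and alcohol or aldehyde dehydrogenases 6 rose and 5 fell. Secreted proteins were mixed, with 9 rises and 3 falls among 44 complement and coagulation genes, 4 and 7 among 27 albumin and other plasma proteins, and 6 and 5 among 30 hepatokines.

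Markers of other cells were called in few cases. Of 13 chemokine receptors 3 rose, of 9 neutrophil markers 1 rose and of 8 erythroid transcripts 1 rose, with no falls. The risen neutrophil marker was Lcn2, which is also counted in the acute phase, ductular and epithelial injury, and iron and heme lists. None of 26 pancreatic acinar and none of 13 adipose and mesothelial transcripts was called by edgeR, and none had an unadjusted p under 0.05. DESeq2 also called none, and limma-voom called 1 of the adipose and mesothelial transcripts, Cfd, higher. The summed adipose and mesothelial level was 25.8 to 41.6 CPM in HFD livers and 9.98 to 49.5 CPM in normal-diet livers. Of 11 skeletal muscle transcripts 8 fell, but none fell and 1 rose without normal-diet replicate 1.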
